A study of Mus musculus with 14 samples.

Results

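The libraries of CD45+ cells sorted from mouse liver were taken alone, as a single condition, to describe how resting liver leukocytes spend their RNA. The members were chosen by title: every library titled as sorted CD45+ cells belongs, which gave 12 of the 14 libraries of the series. All came from needle biopsies of the livers of wild-type, untreated mice, per the labels. Each of 2500, 5000, 10000 and 20000 sorted cells per sample contributed 3 libraries. CD45 is the only sort marker that the titles name, and leukocyte types were not separated by label. The sources used here do not give strain, age, sex or the number of animals. Whether each library is from an animal of its own is not labelled, so a p-value covers the spread among these libraries, which may be technical. The RNA was amplified by SMART-seq v4, and the deposited tables give counts per gene and TPM (transcript abundance scaled for gene length, with the same total in every library).

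CD45 is a surface phosphatase carried by nearly all leukocytes. The liver holds resident macrophages (Kupffer cells), patrolling and recruited monocytes, neutrophils and dendritic cells, and a lymphocyte pool rich in natural killer (NK) cells and in T cells with an invariant receptor. B cells carry surface immunoglobulin and, like dendritic cells and macrophages, display peptides on MHC class II, whereas T cells read such peptides through the T cell receptor. A transcript pool of sorted leukocytes is a weighted sum over these cells: in bulk samples, fewer cells of a type and less RNA per cell cannot be told apart.

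The label of the libraries was checked against marker genes. Ptprc, the gene of CD45 itself (chr1:138062861-138175708 on GRCm38), had a lowest level of 909 TPM, a median of 975 and a highest of 1063. All 15 genes of a general leukocyte list exceeded 100 TPM on average, from Evl at 144 TPM to Cd52, a small glycopeptide of the lymphocyte surface, at 2935 TPM. Alb, the albumin gene of hepatocytes, reached 31.2 ± 5.42 TPM (mean ± SD, n = 12, as for all such values that follow). Other hepatocyte genes were higher: 3 of the 15 on a hepatocyte list exceeded 100 TPM on average. The highest, Hp at 181 TPM, lay above Evl. The hepatocyte list summed to 667 ± 54.7 TPM, against 16026 ± 599 TPM for the leukocyte list. Total counts per library lay between 6723357 and 14496314, and ranks of expression correlated across genes with a Spearman rho of 0.980 to 0.994 between any pair of libraries (14247 genes with a mean of at least 1 CPM, the count scaled to the library total). Genes are not independent replicates, so that correlation is a description.

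The leukocyte pool was spread over many genes. A library held between 19537 and 21158 genes with at least 1 count, and 12684 genes reached 1 CPM in all 12 libraries. When each library was thinned to the smallest total, 19059 to 20096 genes kept a count. The single most abundant gene took 1.11% of counts, the top 10 took 6.49% ± 0.390 and the top 100 took 19.4% ± 0.592. On average 1038.5 ± 19.6 genes were needed to reach 50% of the counts, with a range of 1007 to 1074, and 5907 ± 28.9 genes to reach 90%. The pool looked more concentrated in TPM, where the top 10 genes took 12.7% ± 1.37, the top 100 took 31.8% ± 1.93 and 466 ± 54.1 genes made up 50%.

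**Figure D1:**
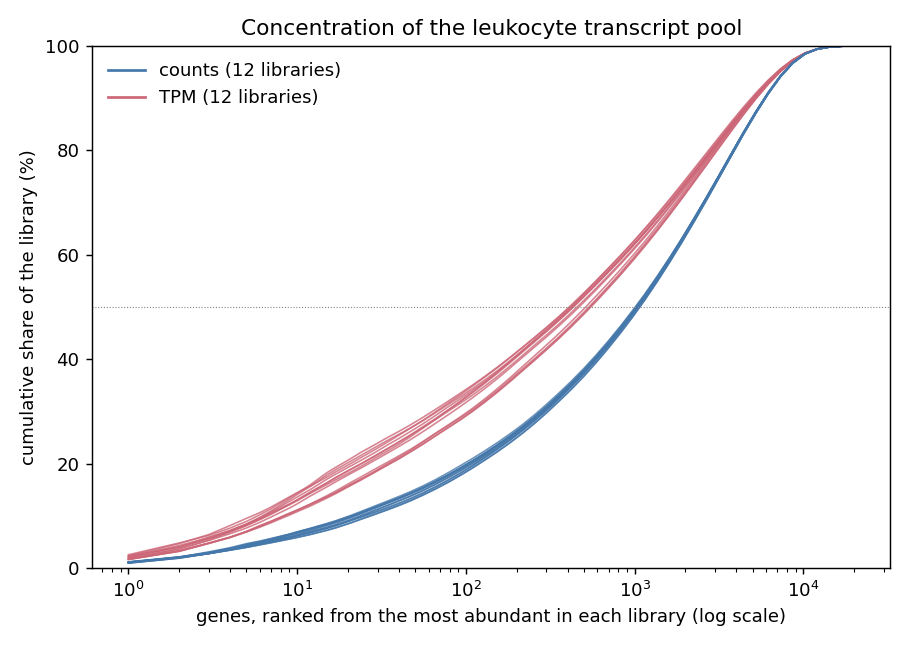
Cumulative share of a library (%) against the number of genes, ranked from the most abundant (log scale), with 1 line for each of the 12 libraries in counts and in TPM. The count lines lie close together and reach 50% at 1007 to 1074 genes, and the TPM lines reach 50% at 409 to 550 genes.

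The top of the TPM ranking was held by mitochondrial transcripts, actin regulators, antigen presentation genes, lysozyme and immunoglobulin. Tmsb4x encodes thymosin beta 4, which binds actin monomers. It stood between 14469 and 21143 TPM with a median of 16988, and no other nuclear gene was higher on average. Cd74, the invariant chain that chaperones MHC class II, ran from 12468 to 16042 TPM (median 13730) and had the highest mean of all genes in CPM, 11065 ± 815. Lyz2, the lysozyme of myeloid cells, lay between 9920 and 11567 TPM (median 10976), the tightest of these genes with an SD of 425 TPM around a mean of 10963. Actb, cytoplasmic beta actin, varied more widely, from 7648 to 12528 TPM. Igkc, the constant region of the kappa light chain, had a lowest value of 6943 TPM, a median of 8319 and a highest of 9077.

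Next in order came genes that many leukocytes share, together with MHC class II chains and the B cell gene Ighm. B2m, the light chain of MHC class I, averaged 5743 ± 530 TPM, and Malat1, a long RNA kept in the nucleus, 5358 ± 682 TPM. The numbered model Gm37376, at 3915 ± 579 TPM, lies within Malat1 on the opposite strand (chr19:5801941-5802393), and reads of the pair cannot be told apart without a strand setting. The MHC class II chains H2-Ab1 and H2-Aa averaged 4627 ± 358 and 3086 ± 167 TPM. H2-Ab1 exceeded H2-Aa in all 12 libraries. The ferritin chains Ftl1 and Fth1, which store iron, averaged 3810.1 ± 254 and 3077 ± 161 TPM. Ighm, the heavy chain of IgM (chr12:113418558-113422730), had 2603 TPM in the lowest library, 2938 at the median and 3595 in the highest. Ly6e, an interferon-inducible surface protein, Pfn1 (profilin, an actin-binding protein), Ppia (cyclophilin A) and Cd52 completed the named nuclear genes near the top. The ranking by counts differed: Ptprc ranked 18 by CPM at 2531 ± 86.6 CPM and 99 by TPM, and Coro1a, H2-K1 and Serinc3 joined the top 20.

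**Figure D2:**
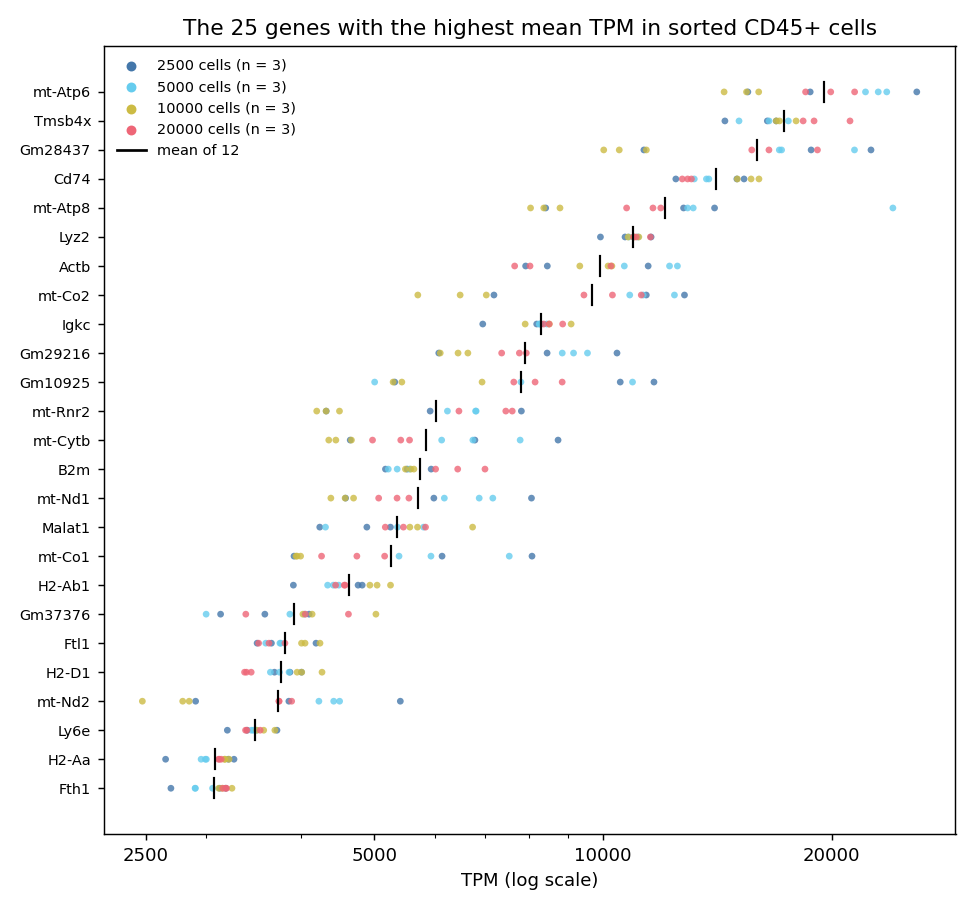
TPM (log scale) of the 25 genes with the highest mean, with 1 point per library coloured by the number of sorted cells and a bar at the mean of 12. Lyz2 points lie within 9920 to 11567 TPM, while mitochondrial genes spread more widely, such as mt-Atp8 from 8026 to 24079 TPM. The highest mt-Atp8 value is replicate 3 of 5000 cells, and the next is 14022 TPM. Low mt-Atp8 values occur in the libraries of 10000 cells and in replicate 3 of 2500 cells (8403 TPM).

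Several of the most abundant transcripts by TPM had no counts at all. mt-Atp6, a subunit of the mitochondrial ATP synthase, had the highest mean TPM (19562 ± 3730) and 0 counts in all 12 libraries. mt-Atp8, mt-Co2 and mt-Co3 also had 0 counts, beside means of 12064, 9674 and 2175 TPM. For most of these genes the genome holds a copy with the same letters. The first 60 bases of coding sequence alone do not settle whether reads of a pair could be separated. They are shown here for such copies and for pairs that differ (GENCODE M21 transcripts on GRCm38, sense strand, with capitals where the members of a pair differ).
mt-Atp6: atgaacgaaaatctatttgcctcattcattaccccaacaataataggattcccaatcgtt
Gm10925: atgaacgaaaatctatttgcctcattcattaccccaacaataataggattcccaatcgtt
mt-Co3: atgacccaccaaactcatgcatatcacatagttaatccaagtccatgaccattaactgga
Gm28437: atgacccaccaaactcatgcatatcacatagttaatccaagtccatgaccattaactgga
Lyz2: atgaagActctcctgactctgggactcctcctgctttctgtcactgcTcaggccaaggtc
Lyz1: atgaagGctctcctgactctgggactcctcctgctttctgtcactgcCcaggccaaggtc
Actb: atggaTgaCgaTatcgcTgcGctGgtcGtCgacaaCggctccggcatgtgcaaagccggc
Actg1: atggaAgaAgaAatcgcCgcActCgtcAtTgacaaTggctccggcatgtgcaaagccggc

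mt-Atp6 (mitochondrial genome, 7927 to 8607) and the numbered model Gm10925 (chr1:24613974-24614651) were identical over all 678 aligned bases. mt-Co3 and its copy Gm28437 (chr1:24613189-24613971) were identical over 783 bases. The numbered copies were named here after their values were seen. Gm10925 was assigned 7792 ± 2338 TPM and Gm28437 15969 ± 4284 TPM, again with 0 counts. A split of TPM between identical sequences cannot be read as expression of either copy, so the sum is the interpretable value: 27353 ± 5390 TPM for mt-Atp6 with Gm10925, and 18144 ± 4934 TPM for mt-Co3 with Gm28437. Of mt-Atp8, 7.47% of 31-base words occurred in another gene, and its annotated span (7766 to 7969) overlaps that of mt-Atp6. mt-Co2, a subunit of cytochrome oxidase, had all of its 31-base words in another gene (100%).

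Other pairs differed in sequence. Lyz2 and Lyz1, neighbouring lysozyme genes on chromosome 10, matched at 422 of 444 bases (95.05%), with 2 differences among the bases printed. Lyz2 was 278-fold higher than Lyz1 (44.2 ± 24.2 TPM) within libraries, higher in 12 of 12. That comparison, like the other 15 gene pairs compared, used a two-sided exact sign-flip permutation test of log2 TPM ratios over the 12 libraries, with a pseudocount of 0.1 TPM and Benjamini-Hochberg adjustment over 16 pairs. For Lyz2 over Lyz1 the exact permutation p was 4.88e-04, the smallest p that 12 libraries can give, with an adjusted p of 5.21e-04. The same values held for 15 of the 16 pairs (93.8%), each with the same gene higher in 12 of 12 libraries. The share that would pass among pairs drawn from all genes was not computed. No conclusion about these genes is drawn from that count. Actb and Actg1, the cytoplasmic actins, matched at 997 of 1125 bases (88.6%), with 9 differences among those printed. Actb exceeded Actg1 by 7.16-fold in TPM. In counts the gap was far wider, with 6930 ± 1087 CPM for Actb against 6.83 ± 0.598 CPM for Actg1. The size of the gap is uncertain, since 23.6% of the 31-base words of Actb and 40.2% of those of Actg1 occur in another gene.

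The same contrast between the deposited units ran through the whole table. Of 1766 genes with a mean of at least 100 TPM, 157 had fewer than 10 CPM, and those 157 held 12.8% of all TPM. They comprised 64 protein-coding genes and 53 pseudogenes, and 24 of them had 0 counts in every library. Familiar housekeeping genes were among these 157: Gapdh, a glycolytic enzyme, had 255.4 TPM but 8.60 CPM, and Rps27, a ribosomal protein gene, had 2166 TPM but 5.71 CPM. Ppia was above that limit, with 2839 TPM and 20.95 CPM. The share of a gene's 31-base words that occur in another gene moved with this gap. Among 325 genes with no shared word, 1.54% fell under 10 CPM, and the median log2 ratio of counts per kb to TPM was 0.46. With over 90% of words shared (99 genes), 85.9% fell under 10 CPM, and the median log2 ratio was -6.58. The sources used here do not say how reads with several matches were counted, and its part in the gap was not tested. Across 13090 genes with at least 1 CPM and 1 TPM, the Spearman rho between both rankings was 0.824, and the top 100 lists had 50 genes in common.

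**Figure D3:**
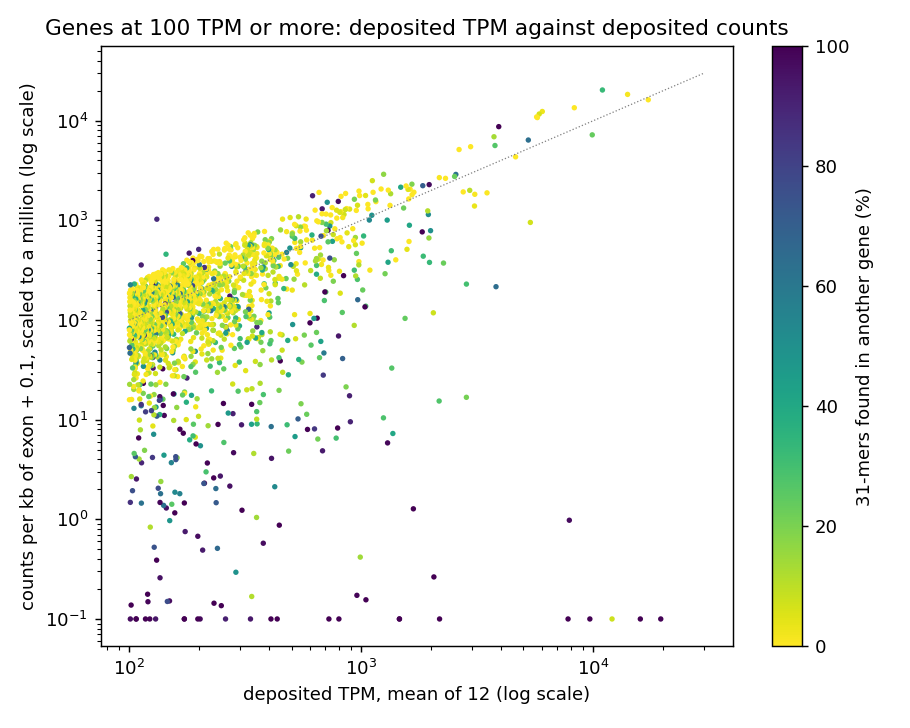
Mean deposited TPM (x, log scale) against deposited counts per kb of exon, scaled to the same total as TPM and with 0.1 added (y, log scale), for genes with a mean of at least 100 TPM, coloured by the share of 31-base words found in another gene. The dotted line marks equal values, and dark points, with most words shared, make up the band at the bottom: 85 of the 99 genes with over 90% shared had fewer than 10 CPM.

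Gene models known only by a number took 10.1% ± 0.699 of TPM, and the mitochondrial genome took the largest share among the other gene families. The numbered models include Gm28437 and Gm10925 (15969 and 7792 TPM on average), whose bases match mt-Co3 and mt-Atp6. TPM assigned to such copies is left out of the mitochondrial share, so the split between both shares is uncertain. The 37 genes of the mitochondrial genome took 7.89% ± 1.77 of TPM, from 5.58% to 10.8%, and 2.75% ± 0.655 of counts. The 3 libraries of 10000 cells lay between 5.58% and 5.97%, those of 5000 cells between 9.28% and 9.78%, those of 20000 cells between 7.57% and 8.38% and those of 2500 cells between 5.94% and 10.8%. The summed TPM of the mitochondrial genes had a CV of 22.4% (SD as a percentage of the mean), against 4.90% for the actin cytoskeleton list. Of the mitochondrial genes with counts, mt-Rnr2, the large ribosomal RNA, averaged 7021 ± 1719 CPM, and mt-Cytb, of complex III, 4789 ± 1199 CPM. Nuclear genes of oxidative phosphorylation (105 genes) added 1.68% ± 0.0957 of TPM, with Atp5b, the catalytic beta subunit of the ATP synthase, highest at 943 ± 71.8 TPM.

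The actin cytoskeleton was the next large block. The 26 listed genes took 4.74% ± 0.232 of TPM and 3.48% ± 0.148 of counts, and 24 of them exceeded 100 TPM. Besides Tmsb4x, Actb and Pfn1, these included Coro1a, a leukocyte coronin that binds actin filaments, at 2307 ± 150 TPM, and Cfl1, the filament-severing cofilin, at 1522 ± 94.7 TPM. Subunits of the Arp2/3 complex, which nucleates branched filaments, ranged from Actr2 at 111 ± 39.5 TPM to Arpc1b at 1347 ± 57.1 TPM. Capzb, which caps filament ends, was the most even of the 4731 genes with a mean of at least 50 CPM, with a CV of 2.36% in CPM.

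Ribosomal protein genes differed widely between the units. The 83 genes took 4.11% ± 0.325 of TPM but 0.624% ± 0.0507 of counts. Their median share of 31-base words found elsewhere was 27.1%, against 3.92% for the 1606 protein-coding genes at 100 TPM or more, and 24 of the 83 fell under 10 CPM. Rps19, of the small subunit, averaged 2045 ± 205 TPM. Histone genes (108) took 0.811% ± 0.04996 of TPM, of which H3f3a, a replacement histone made outside S phase, supplied 35.02%.

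Antigen presentation was a large item in both units. The 10 genes of the MHC class II list took 2.58% ± 0.194 of TPM and 2.14% ± 0.126 of counts. Cd74 alone supplied 54.6% of the list. The accessory chains that load peptide onto class II were lower: H2-DMb2 averaged 612 ± 42.7 TPM, H2-DMa 396 ± 24.2 TPM and H2-Ob 375 ± 23.5 TPM. Ciita, the master transcription factor of class II genes, stood at 71.1 ± 7.60 TPM. The 12 genes of the class I list took 1.44% ± 0.0443 of TPM, with a CV of 3.08% between libraries. H2-D1 exceeded H2-K1 in 12 of 12 libraries (3771 against 2525 TPM; H2-K1 at 0.670 of H2-D1). H2 genes are near-identical copies of each other in part, with 26.9% of the words of H2-D1 and 22.8% of those of H2-K1 found in another gene. The proteasome (54 genes) took 0.795% ± 0.0353 of TPM, led by Psmb8, a subunit of the immunoproteasome, at 641 ± 42.1 TPM.

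**Figure D4:**
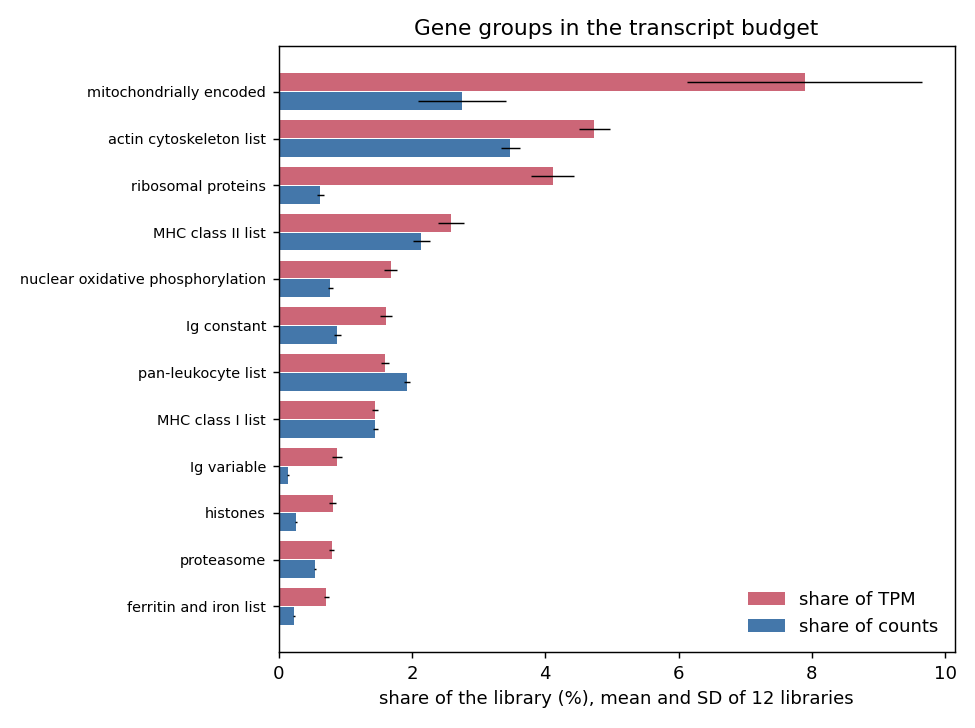
Share of TPM and of counts (%, mean with SD of 12 libraries) for 12 gene groups. The mitochondrially encoded genes have the longest bar in TPM (7.89% ± 1.77), the actin cytoskeleton list has the longest in counts (3.48%), and ribosomal proteins take 4.11% of TPM beside 0.624% of counts.

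The relative level of the main lineages depended on the measure for 2 of its steps. Summed over 15 markers each, myeloid transcripts stood at 18091 ± 716 TPM, B cell transcripts at 9753 ± 612, T cell transcripts at 3419 ± 211 and transcripts of NK cells and innate lymphoid cells (ILC) at 3128 ± 213. That order held in 12 of 12 libraries. The myeloid sum was 1.86-fold the B cell sum (range 1.65 to 2.11), the B cell sum was 2.85-fold the T cell sum, and the T cell sum was 1.09-fold the NK sum (range 1.03 to 1.26). A single gene, Lyz2, made up 60.6% of the myeloid sum. Without the most abundant member of each list the myeloid and B cell sums were 7128 and 6792 TPM, and the myeloid sum was the higher in 7 of 12 libraries. By the median member, B cells led with 328 TPM against 297 TPM for myeloid genes, and the myeloid median was the higher in 1 of 12 libraries. T cells and NK cells likewise changed places: by the median member the T cell list was higher in 3 of 12 libraries, and by summed CPM in 2 of 12. The steps from B cells down to T cells and to NK cells held in 12 of 12 libraries by all 4 measures used.

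**Figure D5:**
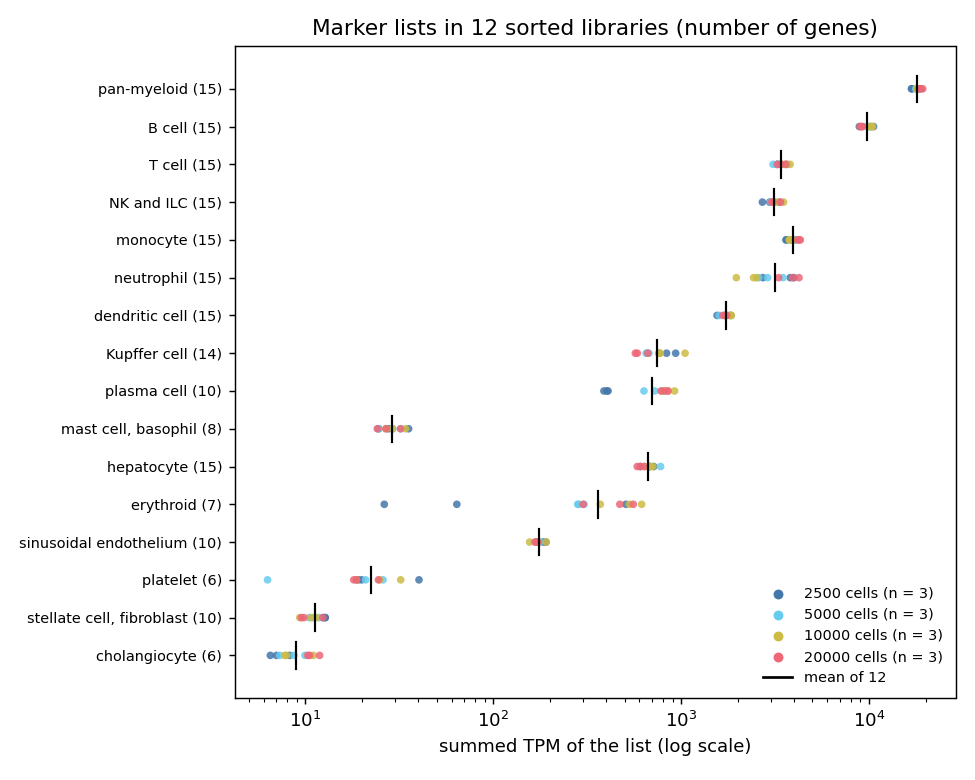
Summed TPM (log scale) of 16 marker lists, with the number of genes in brackets, 1 point per library coloured by the number of sorted cells and a bar at the mean of 12. Pan-myeloid and B cell lists lie highest at means of 18091 and 9753 TPM, T cell and NK lists overlap, and plasma cell and erythroid lists spread widely.

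Single genes of the lineages were also compared within libraries. Cd79a, a signalling chain of the B cell receptor, averaged 1338 ± 72.9 TPM and was 6.86-fold higher than Cd3e, a chain of the T cell receptor complex, at 196 ± 19.7 TPM. Cd3e was 1.53-fold higher than Ncr1, an activating receptor of NK cells (128 ± 12.3 TPM), in 12 of 12 libraries. With counts per kb of exon in place of TPM that direction turned, with a log2 ratio of -0.82. Csf1r, the growth factor receptor of monocytes and macrophages, averaged 247 ± 25.1 TPM and was 0.184 of Cd79a.

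Of the 4 lists for single myeloid cell types, the monocyte list had the highest mean sum. Its 15 genes summed to 3928 ± 226 TPM, although in replicate 2 of 2500 cells the neutrophil list was higher (3808 against 3612 TPM). Ly6c2, the surface antigen of inflammatory monocytes, averaged 953 ± 90.1 TPM, Plac8 810 ± 81.2 TPM and Chil3, a chitinase-like secreted protein, 325 ± 34.1 TPM. Ccr2, the chemokine receptor that draws classical monocytes into tissue, was 3.44-fold higher than Cx3cr1, which marks patrolling monocytes (288 ± 15.7 against 83.9 ± 8.91 TPM), in 12 of 12 libraries. Both are also made by other leukocytes, such as NK and T cells. General myeloid genes below Lyz2 included Cst3 (cystatin C) at 1624 ± 162 TPM and the signalling adaptors Tyrobp and Fcer1g at 1560 ± 91.4 and 1067 ± 93.8 TPM, which NK cells also make.

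Kupffer cell transcripts were lower and less even. The 14 genes summed to 744 ± 142 TPM, with a lowest library of 571 TPM, a median of 718 and a highest of 1049.7 TPM. Clec4f, a lectin that marks Kupffer cells in mice, ranged from 77.4 to 166 TPM. The complement C1q chains C1qa, C1qb and C1qc averaged 71.3, 124 and 101 TPM. Timd4 and Marco, scavenging receptors of resident macrophages, averaged 7.64 ± 2.24 and 7.65 ± 4.36 TPM. All 14 genes exceeded 1 TPM on average. The highest sum belonged to replicate 2 of 10000 cells and the lowest to replicate 3 of 20000 cells.

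The neutrophil list was dominated by a pair of genes, and its median member averaged 28.1 TPM. Which cells made the transcripts of that pair was not tested. S100a8 and S100a9, whose products form calprotectin, averaged 1330.4 ± 335 and 1307 ± 342 TPM and together stood at 2637 ± 668 TPM, out of 3155 ± 735 TPM for all 15 genes. Their ratio did not pass the test (1.02-fold, S100a8 higher in 8 of 12 libraries, exact permutation p = 0.359, adjusted p = 0.359). Csf3r, the receptor of granulocyte colony-stimulating factor, averaged 132.8 ± 14.3 TPM and varied less. Ly6g, also on the list, lay between 0 and 5.99 TPM. Genes of granule formation in immature neutrophils were patchy. Ngp was highest at 141 TPM in replicate 2 of 2500 cells, 114 TPM in replicate 3 of 5000 cells and 54.8 TPM in replicate 1 of 10000 cells, and listed at 0 in 3 libraries. Ltf (lactoferrin) and Camp (cathelicidin) had their 3 highest values in the same 3 libraries, with 124, 69.3 and 29.7 TPM for Ltf and 29.9, 43.5 and 17.98 TPM for Camp. Elane and Mpo, of the primary granules, each had their highest value in replicate 3 of 20000 cells, at 1.48 and 5.13 TPM. These genes were singled out after their values were seen.

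Dendritic cell transcripts summed to 1732 ± 94.5 TPM over 15 genes. Irf8, a transcription factor that B cells and monocytes also express, led with 573 ± 45.5 TPM. Siglech, a lectin of plasmacytoid dendritic cells, averaged 204 ± 13.8 TPM. Markers of the cross-presenting type were much lower, with Clec9a at 9.03 ± 2.24 TPM and Xcr1 at 6.48 ± 1.39 TPM, whereas Cd209a reached 125 ± 20.4 TPM. Mast cell and basophil markers were low. Hdc, which makes histamine, led at 20.98 ± 4.01 TPM, and Ms4a2, Fcer1a and Tpsb2 were listed at 0 TPM in all 12 libraries.

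B cell genes were high and even. All 15 exceeded 10 TPM and 13 exceeded 100 TPM, with Cd79b, the partner chain of Cd79a, at 1124 ± 67.7 TPM and Ms4a1 (CD20) at 339 ± 24.7 TPM. Ighm was 2.43-fold higher than Ighd, the heavy chain of IgD (1217 ± 89.1 TPM). Pax5, the transcription factor that holds B cell identity, averaged 24.0 ± 2.64 TPM. Among light chains, Igkc was 7.21-fold higher than Iglc2, and kappa made up 71.1% ± 1.336 of light chain constant region TPM, from 68.6% to 74.0%. The highest lambda constant gene, Iglc3 (1479 ± 127 TPM), has 40.8% of its 31-base words in another gene. By summed variable segments the lambda share was lower, with 5347 ± 554 TPM for kappa and 692 ± 88.8 TPM for lambda. The size of the kappa share is therefore uncertain. The 13 constant region genes took 1.61% ± 0.0930 of TPM, and 348 variable segments took 0.876% ± 0.0813. No heavy chain segment dominated. Ighv1-26 was the highest of 185 on average at 5.32% ± 0.745 of heavy chain variable TPM, and it was the top segment in 4 of 12 libraries. Iglv1 made up 57.2% ± 6.93 of the lambda variable TPM, a family of 3 segments. Read length limits how well segments of a family can be told apart, and many share sequence.

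Of the plasma cell genes, Igha and Jchain were low in the libraries of 2500 cells. Igha, the heavy chain of IgA, stood at 5.47, 19.95 and 1.3 TPM in the 3 libraries of 2500 cells and between 134 and 366 TPM in the other 9. Jchain, which joins immunoglobulin units into polymers, stood at 0.66, 0.40 and 0 TPM in those 3 libraries and between 46.5 and 106 TPM in the others. The plasma cell list summed to between 388 and 409 TPM in the 2500-cell libraries and to at least 634 TPM elsewhere. IgG genes were carried by single libraries: Ighg1 reached 130 TPM in replicate 2 of 20000 cells and at most 2.66 TPM in any other library, and Ighg2b reached 160 TPM in replicate 1 of 10000 cells and 65.3 TPM in replicate 1 of 20000 cells, with at most 27.9 TPM elsewhere. Class-switched chains made up from 0.107% to 9.58% of heavy chain constant TPM. Xbp1, a factor of the secretory programme that other cells also use, varied little, at 207 ± 13.04 TPM. Igha and Jchain were singled out after their values were seen. The share of all genes that separate the 2500-cell libraries in the same way was not computed. What sets these libraries apart was not tested.

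T cell transcripts came mostly from cells with an alpha-beta receptor. Trac, the alpha constant region, averaged 653 ± 52.8 TPM and was 61.6-fold higher than Trdc, the delta constant region (10.6 ± 1.44 TPM). Gamma and delta constant regions made up 6.73% ± 0.419 of T cell receptor constant TPM, from 5.95% to 7.51%. The size of that share is uncertain. Of the 31-base words of the gamma genes Tcrg-C1 and Tcrg-C2, 51.0% and 45.9% occur in another gene. Trbc2 exceeded Trbc1 by 1.337-fold, a ratio of uncertain size, since 48.5% and 44.8% of their 31-base words occur in another gene. The co-receptor genes were low: Cd8b1 averaged 181 ± 13.7 TPM, Cd8a 47.6 ± 3.88 TPM and Cd4 29.0 ± 3.67 TPM. Cd4 was 0.608 of Cd8a and lower in 12 of 12 libraries, and Cd8a was 0.263 of Cd8b1.

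The variable segments of the T cell receptor were uneven. Trav11d made up 28.8% ± 8.61 of the TPM of 128 alpha segments, followed by Trav7-2 at 10.4 TPM, and it was the highest alpha segment in 11 of 12 libraries. Trbv13-2 made up 27.5% ± 2.95 of the TPM of 35 beta segments, from 23.9% to 35.04%, and was the highest in 12 of 12. As background, the invariant receptor of mouse natural killer T cells is built from a Trav11 alpha segment and most often a Trbv13-2 beta segment. Trav11d has a copy, Trav11, whose first 60 bases of coding sequence are shown because TPM was assigned to both copies (chromosome 14, plus strand, no differing base).
Trav11d: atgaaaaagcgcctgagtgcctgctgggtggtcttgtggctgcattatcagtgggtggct
Trav11: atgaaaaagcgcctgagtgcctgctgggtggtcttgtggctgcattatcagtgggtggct
The copies were identical over 342 bases and both had 0 counts. In 11 libraries all of the TPM went to Trav11d (93.2 to 177 TPM). In replicate 1 of 20000 cells, 23.1 TPM went to Trav11d and 124 TPM to Trav11, and Trav11d was not the highest alpha segment there. The sum of both copies ran from 93.2 to 177 TPM (128 ± 27.3 TPM).

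The NK and ILC list lay close to the T cell list, and which was higher depended on the measure. By sum the NK and ILC list stood at 3128 TPM against 3419 TPM for T cells. By the median member it stood at 126 against 116 TPM. The lists do not separate the cells, since T cells also make some of the cytotoxic genes. Nkg7, a protein of cytotoxic granules in NK cells and CD8 T cells, averaged 864 ± 63.9 TPM. Gzma, a granule protease, averaged 705 ± 58.4 TPM and was 4.78-fold higher than Gzmb (148 ± 18.02 TPM), in 12 of 12 libraries. Gzma supplied 81.2% of the TPM of the 10 granzyme genes. Prf1, which forms pores in target cells, averaged 110 ± 12.9 TPM. The 30 lectin-like Klr receptor genes summed to 1537 ± 103 TPM, with Klrd1, Klrk1 and Klrb1c (the NK1.1 antigen) at 275, 236 and 168 TPM. Tbx21, a transcription factor of NK cells and type 1 lymphocytes, exceeded Eomes, its relative in circulating NK cells (78.1 ± 7.30 against 19.7 ± 3.39 TPM). That last pair was not tested.

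Signalling molecules took small parts of the pool. Of 47 chemokine genes, 19 exceeded 1 TPM and 3 exceeded 100 TPM. Ccl5, made by NK and memory T cells, supplied 43.6% of chemokine TPM at 919 ± 63.8 TPM, followed by the myeloid chemokines Ccl6 at 687 ± 54.8 TPM and Ccl9 at 183 ± 21.6 TPM. The receptors were led by Ccr7, which guides cells to lymph nodes, at 332 ± 24.1 TPM, then Ccr2 and Cxcr6, a receptor of liver-resident lymphocytes, at 205 ± 21.2 TPM. Of 16 cytokine genes, Ltb (lymphotoxin beta) made up 48.3% at 544 ± 47.4 TPM. Il1b averaged 123 ± 11.5 TPM, while Tnf and Ifng averaged 16.2 ± 4.53 and 17.6 ± 5.92 TPM. Il6 and Il10 stayed under 1 TPM in every library, and Il13 and Il17a were listed at 0 in all 12. Among 43 interleukin receptor genes, Il2rg, the common gamma chain, led with 641 ± 48.8 TPM. Toll-like receptor genes were low but even, 12 genes summing to 235 ± 8.40 TPM with a CV of 3.57%, and Tlr7 was highest at 57.05 ± 7.09 TPM. Fc receptor genes summed to 2903 ± 125 TPM, with Fcmr, the IgM receptor of B cells, at 784 ± 61.1 TPM behind Fcer1g. Of the integrins, Itgb2, the beta chain shared by the leukocyte integrins, led with 578 ± 42.8 TPM.

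Genes that report on the state of the cells were present at steady levels. Immediate early genes, which respond within minutes to stimulation and to handling, summed to 3766 ± 244 TPM over 18 genes. Klf2, a factor of quiescent lymphocytes that is also flow-responsive, led at 818 ± 50.9 TPM, followed by Jund at 713 ± 84.8 TPM and Junb at 524 ± 48.5 TPM. Fos ran from 124 to 171 TPM and Egr1 from 22.4 to 42.8 TPM, with no library far above the others. Interferon-stimulated genes summed to 6040.0 ± 206 TPM, of which Ly6e, at 3484 ± 141 TPM, made up 57.7%. Classical members were far lower, with Isg15 at 28.7 ± 3.74 TPM and Ifit1 at 28.0 ± 4.85 TPM. Cell cycle genes summed to 482 ± 55.6 TPM. Pcna, used in DNA replication and repair, led at 105 ± 8.74 TPM, and Mki67, a marker of dividing cells, averaged 4.38 ± 1.39 TPM.

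Transcripts of liver cells outside the leukocyte lineage were few. All 15 hepatocyte genes together reached 667 ± 54.7 TPM, from 584 to 778 TPM. Hp (haptoglobin), Mup20 and Trf (transferrin) led with 181 ± 13.6, 141 ± 21.4 and 136 ± 18.2 TPM, and Cps1, the entry enzyme of the urea cycle, averaged 0.305 ± 0.377 TPM. Myeloid cells also make Hp. Genes of sinusoidal endothelium summed to 175 ± 10.2 TPM, of which Fcgr2b, an Fc receptor that B cells and macrophages share, supplied 72.03%. Stellate cell and bile duct lists reached 11.2 ± 1.24 and 8.93 ± 1.75 TPM. Erythroid transcripts varied most, from 26.3 TPM in replicate 3 of 2500 cells through a median of 338 TPM to 617 TPM in replicate 1 of 10000 cells, and the libraries of 2500 cells differed among themselves, from 26.3 to 508 TPM. Whether these transcripts came from whole cells or from free RNA was not tested.

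The pool varied little from library to library. Of 4731 genes with a mean of at least 50 CPM, which held 84.9% of counts, the median CV was 7.82% (quartiles 6.29% to 9.85%), where counting error alone gives a median of 3.22%. A CV under 10% was found for 3613 genes (76.4%), and a CV over 30% for 22. After Capzb, the most even genes included the splicing factor Sf3b2 (2.56%), the stress granule protein G3bp2 (2.58%), Mef2c, a transcription factor of B cells and myeloid cells (2.66%), and Csk, a kinase that restrains Src family kinases (2.83%). At the other end, Jchain and Igha had CVs of 68.6% and 63.7%. Tmed9, a cargo receptor of the secretory pathway, had 56.4%, and Actr2 had 39.4%. Lars2, the mitochondrial leucyl-tRNA synthetase, had 54.7%: it averaged 1478 CPM in the libraries of 2500 cells, 1463 at 5000, 2048 at 10000 and 4400 at 20000. The miRNA locus Mir6236 had 55.1% and was likewise highest at 20000 cells (689 ± 39.2 CPM, n = 3) against 211.5 to 295.5 CPM elsewhere, with a TPM of 0 throughout. A numbered model with all its 31-base words in another gene averaged 604, 586, 1068 and 2521 CPM at 2500, 5000, 10000 and 20000 cells. These genes were picked after their values were seen, and the share of all genes that follow the same order was not computed. No test by cell number was run on these values. Whether the reads counted for Lars2 came from its own mRNA was not tested.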

How the data were processed

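Of the 14 libraries, the 12 from sorted CD45+ cells were used here. Per the labels' protocols, total RNA was column-purified with DNase treatment, amplified with SMART-seq v4 and tagmented. The authors deposited whole-number counts per gene and TPM per gene, 1 column per sample without pooling. The deposited score table (variance-stabilised) was not used. The tools named in the submitters' processing notes, without role or order, are featureCounts 1.5.1, STAR 2.5.2b, DESeq2 1.34.0, RSEM 1.3.0 and FastQC 0.11.5, with the build GRCm38. The sources used here do not give the annotation release, the strand setting or the treatment of reads with several matches. Columns were matched by the identifier in each sample's description. For 1 library that label lacks its last character, and it was matched by the rest. 0 columns were left unmapped.

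Of 48794 gene IDs, 48434 were found in GENCODE M21 (GRCm38), which gave biotypes, positions, exon lengths and transcripts. CPM were scaled by library totals. Levels of different genes were compared in TPM. Means and SDs were taken over 12 libraries (6723357 to 14496314 counts). The 16 gene pairs were tested by an exact sign-flip permutation test of log2 ratios (pseudocount 0.1 TPM, adjusted threshold 0.05). No test between cell numbers and no comparison with bulk liver was made (values by cell number are given as description), and no test across all genes was run. The CV and ratio calculations were tested on simulated data. Tools were Python 3.11.15, numpy 2.4.6, pandas 2.3.3, scipy 1.17.1, matplotlib 3.10.9 and, for TMM factors, edgeR 4.0.16 in R 4.3.3.

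The members and the 28 lists (353 genes) and 22 symbol families were chosen with earlier results of these data known. Named genes were the 30 highest in mean TPM, the 20 highest in mean CPM, the top 3 of each list or family, the 10 most and 10 least variable genes at 50 CPM or more, the paired genes, and the 5 moved furthest each way between the rankings. Numbered models were counted and not named, except the copies whose sequence is printed and a model within Malat1. Other list members named in the text were chosen after their values were seen. Alternatives covered the libraries, the unit, the denominator, the low-value filter, the pseudocount and the scaling.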

Additional observations from a re-analysis of the deposited data

How the results depend on the processing

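Of 475 values recomputed under alternatives, 440 kept their direction and their side of the threshold or moved by less than the spread between libraries, and 35 did not. The 475 comprise 240 gene pair ratios, 168 values with 1 library left out and 67 values under other alternatives. Of those 67 shares, sums and counts, only 35 stayed within the spread or 1.5 times. With mitochondrial genes left out of the total, the top 10 and top 100 genes took 5.95% and 17.8% of counts. Under the same setting ribosomal protein, MHC class II and immunoglobulin constant genes took 4.47%, 2.80% and 1.75% of TPM, and the myeloid, B, T and NK sums were 19640.1, 10585, 3711 and 3394 TPM. With genes of at least 10 counts in every library only, ribosomal protein, mitochondrial, MHC class II and immunoglobulin constant shares were 4.50%, 3.93%, 2.95% and 1.84%, and the sums were 20727, 11169, 3916 and 3582 TPM. Both settings shrink the total, which raises the shares of what remains. TPM in place of counts gave 12.7% and 31.8% for the top 10 and top 100 genes and 466 genes for 50% of the pool. Counts in place of TPM gave 0.624%, 2.75%, 2.14% and 0.879% for those same families. The lineage sums were 14938, 12107, 2440.2 and 2551 in CPM, and 7128, 6792, 2688 and 2264 TPM without the most abundant member. With counts per kb of exon, S100a8 over S100a9 and Cd3e over Ncr1 turned, at log2 ratios of -0.51 and -0.82. The cause was not tested. S100a8 over S100a9 passed the threshold without replicate 3 of 2500 cells (log2 ratio 0.05, adjusted p = 0.0488, exact permutation test). With 1 library left out, 168 of 168 shares, sums and counts stayed within the spread or 1.5 times. Leaving out 1 of 12 libraries cannot move a mean by as much as 1 SD. The shares and sums therefore could not have failed, and no conclusion on their stability is drawn from this count.

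No paired analysis was possible because no test compares groups of libraries, and the gene pairs were tested within each library. Depth limits low genes: the smallest library has 6723357 counts. PCR reads carry no molecular identifiers, so counts are not independent molecules.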
